A study of Mus musculus with 6 samples.

Results

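Potassium channel genes were examined in lists of open chromatin from astrocyte nuclei of the primary visual cortex (V1) with and without the glucocorticoid receptor (GR). The set comprised the 92 protein-coding genes of 21938 in the mouse annotation whose symbol starts with Kcn, leaving out Kcnj10 and Kcnj16. A region belonged to a gene when its centre lay in the gene body or within 20 kb of it, which gave 1193 of the 160877 regions of the series. All nuclei were taken at P21 from GR fl/fl mice, in which both alleles of the receptor gene carry loxP sites. At P0-P1 the mice had received an AAV2/5 virus with a 4x6T cassette that expresses EGFP-KASH together with either ΔCre, an inactive recombinase (GR-Con), or Cre (GR-KO), both under the promoter GfaABC1D. The virus restricts the transgene mainly to astrocytes, and the nuclei were sorted for the EGFP that the KASH domain anchors to the nuclear envelope, so cells that escaped the virus were not sampled. There were 3 ATAC-seq libraries per group, each from several pooled mice, so the spread between libraries is a spread between pools.

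Potassium channels let potassium ions cross the membrane along their gradient and so set the resting potential and shape firing. Inward rectifiers (Kcnj) and tandem-pore channels (Kcnk) pass current at rest, voltage-gated families (Kcna, Kcnb, Kcnc, Kcnd, Kcnq, Kcnh) open on depolarization, and Kcnma1, Kcnn and Kcnt channels open on a rise in calcium or sodium. Silent subunits (Kcnf, Kcng, Kcns, Kcnv) form no channel alone and modify Kcnb channels, and auxiliary subunits (Kcnab, Kcne, Kcnmb, Kcnip) alter gating and traffic. Astrocytes take up the potassium that active neurons release, and besides the inward rectifiers left out here they are known to express tandem-pore channels such as Kcnk1, Kcnk2 and Kcnk10. GR is a transcription factor that binds DNA on ligand, often at an inverted repeat of the hexamer AGAACA.

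The assay, ATAC-seq, marks DNA that the Tn5 transposase can reach. For every peak the deposited lists give a fold, the signal relative to the local background in the same library, and a −log10 p, and at a given fold the −log10 p rises with the number of reads. The lists hold between 179462 and 198929 peaks, the longest being GR-Con 3, and read depth is unknown. The lowest −log10 p in the lists is 2.00. No peak at a site thus means that no listed peak was assigned there, and a weaker signal is not excluded. Absent peaks were ranked lowest in their library, so score differences at such sites depend on that rule. A site here is 401 bp wide around a shared summit and had a peak in at least 2 libraries. Values were ranked within each library, turned into normal scores and compared between the groups, so that a score difference of 1 is 1 SD of the values in a list on a normal scale. The score difference is always GR-KO minus GR-Con.

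The sequences of 9 sites carry the differences described below and are printed as 201 bp of mm10, read from the RefSeq copy of that genome on the plus strand, with the site centre at position 101. The first 4 are among the 5 sites that differed by both measures, the next 3 hold the full GR palindrome (here the arm GNACA, any 3 bases and the arm TGTNC, which reads the same on both strands), and the last 2 were higher in GR-KO and hold the hexamer ACTGTA. Capitals mark matches to the palindrome, to AGAACA, to ACTGTA and to the AP-1 motif TGANTCA on either strand.
Kcnq3, chr15:66157407-66157607: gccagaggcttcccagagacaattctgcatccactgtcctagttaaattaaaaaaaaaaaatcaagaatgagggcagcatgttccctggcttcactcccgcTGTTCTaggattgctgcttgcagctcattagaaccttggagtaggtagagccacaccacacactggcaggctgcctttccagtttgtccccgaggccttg
Kcnip1, chr11:33786662-33786862: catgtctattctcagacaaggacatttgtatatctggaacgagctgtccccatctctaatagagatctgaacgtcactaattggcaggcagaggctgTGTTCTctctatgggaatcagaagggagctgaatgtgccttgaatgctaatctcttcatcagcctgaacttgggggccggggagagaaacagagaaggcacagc
Kcng3, chr17:83596008-83596208: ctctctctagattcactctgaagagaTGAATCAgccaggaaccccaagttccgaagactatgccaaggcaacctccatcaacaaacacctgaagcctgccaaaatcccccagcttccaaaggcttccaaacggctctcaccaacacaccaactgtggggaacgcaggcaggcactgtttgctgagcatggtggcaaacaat
Kcnh8, chr17:52810934-52811134: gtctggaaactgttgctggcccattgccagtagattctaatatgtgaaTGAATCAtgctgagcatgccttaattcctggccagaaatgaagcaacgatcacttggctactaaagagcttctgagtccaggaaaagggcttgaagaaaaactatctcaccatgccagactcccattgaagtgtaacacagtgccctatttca
Kcnma1, chr14:23882067-23882267: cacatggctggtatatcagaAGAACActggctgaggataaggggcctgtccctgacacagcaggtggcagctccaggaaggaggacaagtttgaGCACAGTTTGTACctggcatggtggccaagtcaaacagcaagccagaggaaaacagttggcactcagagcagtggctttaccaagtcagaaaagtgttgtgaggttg
Kcnn1, chr8:70832455-70832655: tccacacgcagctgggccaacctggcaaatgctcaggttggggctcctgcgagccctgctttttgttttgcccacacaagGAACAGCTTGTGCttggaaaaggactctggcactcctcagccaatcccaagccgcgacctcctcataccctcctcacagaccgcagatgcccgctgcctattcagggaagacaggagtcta
Kcnq3, chr15:66276791-66276991: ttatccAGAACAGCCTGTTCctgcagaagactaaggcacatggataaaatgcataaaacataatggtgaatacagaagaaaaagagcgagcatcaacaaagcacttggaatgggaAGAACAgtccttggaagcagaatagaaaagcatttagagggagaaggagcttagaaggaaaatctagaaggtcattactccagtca
Kcnn3, chr3:89559029-89559229: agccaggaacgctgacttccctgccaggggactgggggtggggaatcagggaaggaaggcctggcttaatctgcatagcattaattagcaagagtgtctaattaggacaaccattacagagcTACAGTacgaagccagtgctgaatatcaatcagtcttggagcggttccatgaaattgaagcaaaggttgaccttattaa
Kcnq1, chr7:143194869-143195069: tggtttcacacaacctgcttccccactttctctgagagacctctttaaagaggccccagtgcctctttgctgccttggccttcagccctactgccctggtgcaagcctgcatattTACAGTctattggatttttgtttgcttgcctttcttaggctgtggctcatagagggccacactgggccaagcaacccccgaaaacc

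At the receptor gene Nr3c1, 2 of 17 sites passed the test in both fits, and one of them, chr18:39460821-39461221, had no peak in GR-Con and folds of 6.24, 4.76 and 6.39 in GR-KO (adjusted p = 0.0392, limma), while the other, chr18:39428181-39428581, fell from 17.4, 17.4 and 14.3 to 6.68, 4.73 and 6.36 (adjusted p = 0.0240, limma). Which exon is floxed is not stated in the sources used here, so these sites do not check the deletion itself. Promoter peaks of all 10 astrocyte markers were found in every library, with summed folds of 76.0 to 79.7 in GR-Con and 81.6 to 84.9 in GR-KO, which do not overlap. The markers did not move alike. Aldh1l1, Gfap and Sox9 were higher in every GR-KO library than in any GR-Con library, S100b was lower in each, and the other markers overlapped. Of 8 neuronal markers 4 had a promoter peak in all libraries, with summed folds of 22.5 to 27.0 in GR-Con and 23.0 to 25.7 in GR-KO, and Slc17a7 and Neurod6 had none. A promoter peak in all libraries was found at 1 of 6 oligodendrocyte markers (none at Mog, Mag, Sox10 and Mobp), 2 of 3 of oligodendrocyte precursors (none at Gpr17), 3 of 6 of microglia (none at Cx3cr1, Csf1r and Aif1), 1 of 5 of endothelium (none at Cldn5, Pecam1, Cdh5 and Tek) and 3 of 3 of mural cells, and the summed folds of each of these lists overlapped between the groups. The part of these cell types in the results below was not tested.

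Across all 1193 sites the groups were close. A peak in all 6 libraries was found at 725 sites (60.8%, against 62% of all sites). The score of fold differed by a median of 0.0068 at the potassium channel sites and 0.017 at all sites, and that of −log10 p by 0.0011 and 0.0057. Every GR-KO rank of fold lay below every GR-Con rank at 96 sites (8.05%, against 7.57% of all sites) and above at 127 sites (10.6%, against 11.6%). The share of all peaks that fell on these genes was 0.748% ± 0.0144 for GR-Con (SD, n = 3) and 0.735% ± 0.0181 for GR-KO (SD, n = 3), which did not differ beyond the spread between libraries (two-sided exact permutation test, p = 0.4, the smallest possible being 0.1). Within gene bodies alone the libraries of the groups did not overlap, at mean shares of 0.475% and 0.456% (p = 0.1 in the same exact permutation test).

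By fold, 5 sites passed an adjusted p of 0.05, 4 lower and 1 higher in GR-KO. These are 0.335% and 0.0838% of the sites, against 0.127% and 0.0609% of all sites. By −log10 p, 18 sites of 14 genes were lower (1.51%, against 0.835% of all sites) and 9 sites of 8 genes were higher (0.754%, against 0.76%). All 5 sites called by fold were also called by −log10 p in the same direction. The share called higher thus lay near that of all sites in both fits.

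**Figure D1:**
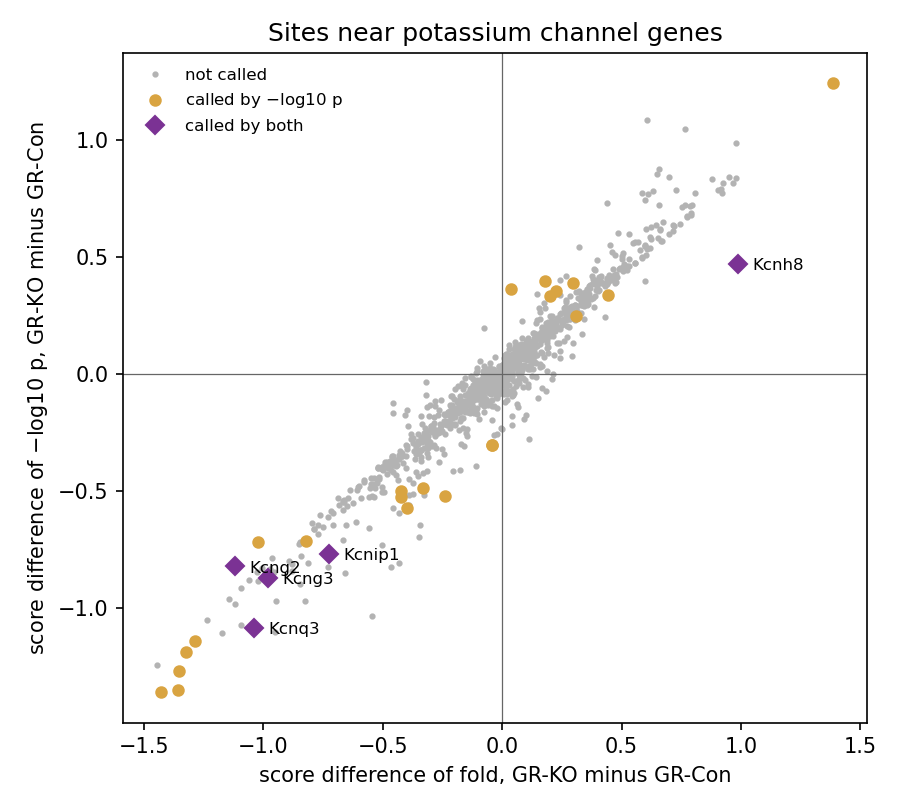
Each point is a site at a potassium channel gene, placed by its difference in normal score, GR-KO minus GR-Con, of fold (x axis) and of −log10 p (y axis), both without unit, with 3 libraries per group. Diamonds are the 5 sites called by both measures and round coloured points the other 22 called by −log10 p alone, and most points lie near 0 on both axes.

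A promoter site of Kcng2, a silent subunit that joins Kcnb channels, had the largest drop in the score of fold among the 5 sites. It lies at chr18:80363532-80363932, centred 82 bp before the nearest transcription start site (TSS) of the gene. Kcng2 lies on the minus strand with its 5′ end at chr18:80364254, so the site is inside the gene, at an internal TSS. The gene had 2 promoter sites, and the other did not pass. Its fold was 20.6, 18.9 and 18.4 in GR-Con 1, 2 and 3 and 6.14, 7.38 and 7.11 in GR-KO 1, 2 and 3. The groups did not overlap, the GR-KO mean was 0.356 of the GR-Con mean, and the score fell by 1.12 (SE 0.0735, adjusted p = 0.0113, limma). The −log10 p was 132, 121 and 112 in GR-Con and 18, 23.5 and 22.3 in GR-KO (score difference −0.82, adjusted p = 8.7e-06, limma). A site in an intron of the same gene, 46.2 kb from the nearest TSS, had no overlap in fold either but did not pass by it, at 22.4, 22.0 and 22.1 in GR-Con and 20.4, 20.9 and 18.1 in GR-KO (adjusted p = 0.330), while its −log10 p fell from 297, 251 and 270 to 115, 132 and 113 (adjusted p = 6.7e-05, limma). A weaker exonic site 40.6 kb from the TSS had a peak of fold 4.16, 5.27 and 2.70 in GR-Con and none in GR-KO. Kcng2 had 10 sites in all, and the mean score of its elements outside promoters differed by −0.45 (SE 0.106, adjusted p = 0.172, limma).

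Kcnq3 encodes a subunit of the M-current, which restrains repetitive firing, and held 3 of the sites lower in GR-KO. The strongest lies in an intron at chr15:66157307-66157707, 129 kb from the TSS. Its fold was 20.0, 17.6 and 15.3 in GR-Con and 8.31, 5.30 and 5.61 in GR-KO, a ratio of means of 0.363 (score difference −1.04, SE 0.121, adjusted p = 0.0312, limma). Its −log10 p, at 193, 182 and 122 against 29.5, 13.6 and 15.1, gave the smallest adjusted p among the potassium channel sites (7.3e-06, limma). In the sequence above, AGAACA on the minus strand lies 4 bp from the centre of this site. The intronic site 9.75 kb from the TSS, which holds the full GR palindrome 87 bp from its centre, had folds of 7.32, 9.83 and 4.44 in GR-Con, 2.71 in GR-KO 1 and no peak in the other GR-KO libraries. The intronic site 165 kb from the TSS had folds of 9.64, 6.77 and 4.73 in GR-Con, no peak in GR-KO 1, and 2.27 and 2.43 in GR-KO 2 and 3. Both of these passed by −log10 p (adjusted p = 0.0215 and 0.0446, limma) and not by fold. The promoter of Kcnq3 stood at percentile 76.8 over the 6 libraries and its score differed by 0.11 (adjusted p = 0.538).

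Kcnip1 encodes KChIP1, a calcium-binding subunit of Kcnd channels. Its intronic site at chr11:33786562-33786962 had folds of 18.1, 20.5 and 15.7 in GR-Con and 9.93, 7.95 and 10.7 in GR-KO, a ratio of means of 0.526. The score fell by 0.73 (SE 0.104, adjusted p = 0.0470, limma), and by −log10 p, at 162, 202 and 133 against 38.9, 26.4 and 42.1, it fell by 0.77 (adjusted p = 2.8e-05, limma). AGAACA on the minus strand lies across the centre of this site. Kcng3, another silent subunit, had an intronic site at chr17:83595908-83596308, 35.8 kb from the TSS, with folds of 12.1, 12.9 and 10.5 in GR-Con and 3.79, 4.92 and 3.37 in GR-KO, a ratio of means of 0.341 (score difference −0.98, SE 0.119, adjusted p = 0.0352, limma). Its −log10 p was 50.5, 60.2 and 44.7 in GR-Con and 7.79, 12 and 6.10 in GR-KO. This site holds TGANTCA 71 bp from its centre and neither AGAACA nor the palindrome.

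The site higher in GR-KO by both measures lies in an intron of Kcnh8, an ELK channel that opens at subthreshold potentials, at chr17:52810834-52811234, 208 kb from the TSS. Its fold was 16.4, 13.2 and 12.5 in GR-Con and 23.8, 22.1 and 25.8 in GR-KO, a ratio of means of 1.71, with every GR-KO library above every GR-Con library. The score rose by 0.99 (SE 0.134, adjusted p = 0.0445, limma). Kcnh8 had only 4 sites and no promoter site, and the mean score of its elements, 0.34 higher in GR-KO (SE 0.0709), had the smallest p of the 89 genes with such elements without passing (adjusted p = 0.131, limma).

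**Figure D2:**
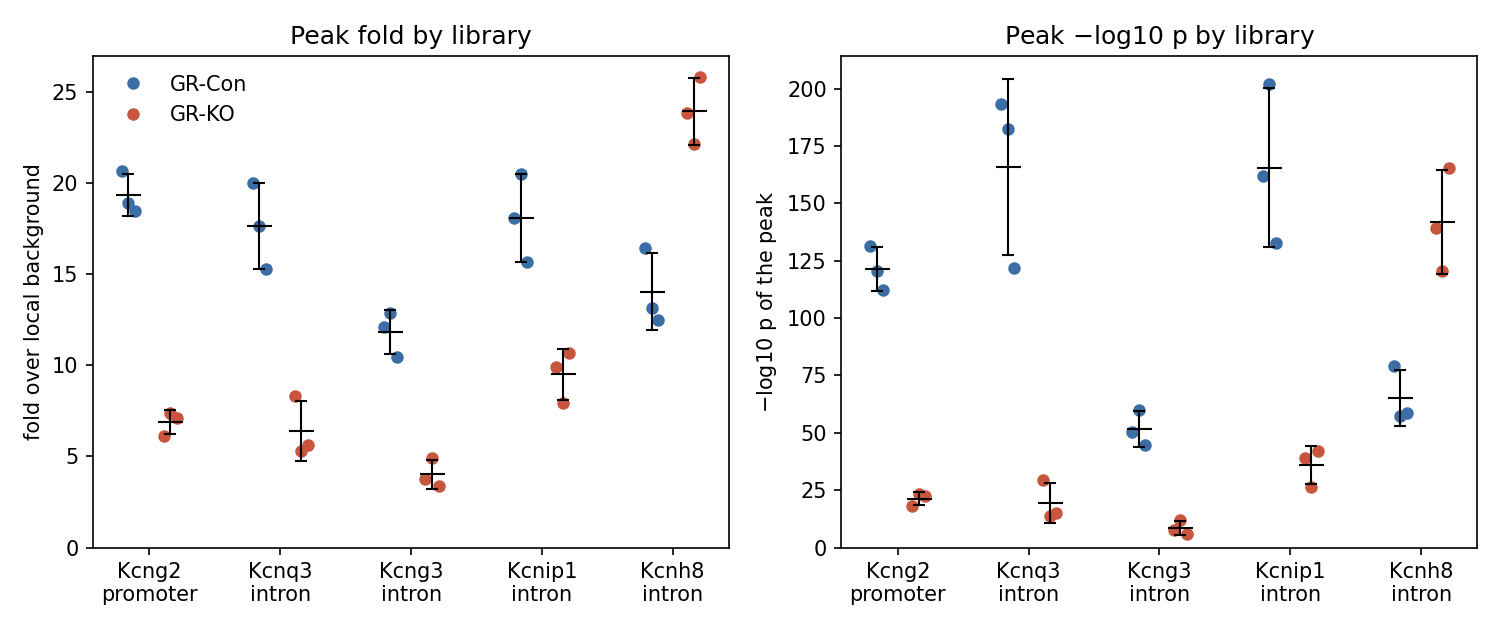
Fold over local background (left, linear axis from 0) and −log10 p (right, linear axis from 0) of the 5 sites called by both measures, with a point per library, 3 GR-Con and 3 GR-KO, and bars for the mean and SD. At the Kcng2 promoter the GR-Con folds lie between 18.4 and 20.6 and the GR-KO folds between 6.14 and 7.38, and only Kcnh8 is higher in GR-KO.

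The calls by fold rest on all 6 libraries. Leaving out any of GR-Con 1, 2 or 3 or GR-KO 1, 2 or 3 left 0 of the 5, with 0 to 3 sites called in the whole genome. As hardly any site passed then, these runs say nothing particular about the 5, and none of them changed direction. By −log10 p the count of lower sites fell from 18 to 4 without GR-Con 1, 4 without GR-Con 2, 9 without GR-Con 3, 14 without GR-KO 1, 10 without GR-KO 2 and 11 without GR-KO 3, and that of higher sites from 9 to between 1 and 4. Over all sites the share lower fell as well, from 0.835% to between 0.117% and 0.526%, and the share higher from 0.76% to between 0.129% and 0.246%. Of the 27 sites called by −log10 p, 5 to 17 kept their call without a library, 7 without a variance trend in the fit, and 5 of 26 when a peak had to cover over 200 bp of the site. By −log10 p the Kcng2 promoter, the Kcnq3 site at 129 kb and the Kcnip1 site passed in every alternative tried, with adjusted p up to 0.0161, 0.0349 and 0.0451.

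Among the tandem-pore genes (14 genes, 168 sites), 3 sites were lower and 1 higher by −log10 p (against 0.835% and 0.76% of all sites). Kcnk1, a weakly rectifying leak channel, held 2 of the lower sites. The one 19.0 kb upstream had folds of 13.5, 11.9 and 7.61 in GR-Con and 5.06, 4.54 and 3.37 in GR-KO (by −log10 p, adjusted p = 0.0206, limma). The one downstream of the gene, 41.3 kb from the TSS, had folds of 15.5, 12.4 and 12.7 against 8.70, 8.70 and 11.0 (by −log10 p, adjusted p = 0.00103, limma). Both lay on the same side in every library. Kcnk2 (TREK-1, a mechanically and lipid gated channel) held sites that moved in opposite directions. The intronic site 126 kb from the TSS had folds of 12.1, 11.8 and 8.83 in GR-Con and 7.12, 6.22 and 6.16 in GR-KO (by −log10 p, adjusted p = 0.00234, limma), while the one 11.5 kb from the TSS had 9.64, 11.1 and 8.79 against 15.2, 15.5 and 13.7 (by −log10 p, adjusted p = 0.0332, limma). Another Kcnk2 site, 524 bp before the TSS and so just outside the promoter window, had folds of 3.78, 3.95 and 4.06 in GR-Con and no peak in GR-KO (adjusted p by fold = 0.0856, limma). Its −log10 p in GR-Con was only 7.50, 8.15 and 9.24. Its score difference by fold, −1.14, rests on ranking absent peaks lowest. The promoters of Kcnk1, Kcnk2 and Kcnk10 did not pass, with score differences of 0.23, −0.027 and −0.049.

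None of the 107 sites of the 13 inward rectifiers passed in either limma fit, with 10 at an unadjusted p under 0.05 by fold and 12 by −log10 p (against 12.1% and 13.4% of all sites). The promoter of Kcnj2, a strong inward rectifier, was among the most accessible of the set, with folds of 19.4, 20.6 and 21.1 in GR-Con and 20.4, 20.4 and 20.8 in GR-KO. Kcnj3 and Kcnj9, which form G-protein-gated channels, had promoters at percentiles 60.6 and 26.2. Kcnj6, of that same group, had the most sites among the inward rectifiers, 37, including an intronic one with folds of 3.02, 3.39 and 3.89 in GR-Con and no peak in GR-KO.

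The calcium- and sodium-activated channels (8 genes, 199 sites) had 5 sites lower and 2 higher by −log10 p (again against 0.835% and 0.76% of all sites). Kcnma1, the large-conductance BK channel, had the most sites of any gene, 60, in a gene body of 725 kb. One of its intronic sites, with the full GR palindrome over its centre, had folds of 6.54, 6.51 and 5.26 in GR-Con, 2.53 in GR-KO 1 and no peak in GR-KO 2 and 3 (by −log10 p, adjusted p = 0.0149, limma). The small-conductance channel Kcnn1 had a site downstream of the gene, 18.2 kb from the TSS, with the palindrome 14 bp from the centre, whose fold was 10.6, 12.6 and 9.74 in GR-Con and 6.90, 6.95 and 6.35 in GR-KO (by −log10 p, adjusted p = 0.000977, limma). All GR-KO libraries were below all GR-Con libraries at both. Kcnn4, of intermediate conductance, had a site 6.86 kb upstream with folds of 4.02, 5.63 and 4.90 in GR-Con and no peak in GR-KO (by −log10 p, adjusted p = 0.0352, limma). At Kcnn2 and Kcnt1, the latter sodium-activated, the folds of the called sites overlapped between the groups and only the −log10 p did not. It was 142, 154 and 143 in GR-Con and 77.0, 89.0 and 75.4 in GR-KO at Kcnn2, and 225, 210 and 173 against 153, 99.6 and 108 at Kcnt1.

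Kcnn3, a small-conductance channel, held both sites of this group that were higher in GR-KO. They lie next to each other in an intron, 39.0 and 39.5 kb from the TSS. At the first the fold was 19.3, 18.3 and 16.2 in GR-Con and 18.6, 18.9 and 17.2 in GR-KO, which overlap, while the −log10 p was 287, 254 and 238 against 369, 410 and 370 (score difference 0.36, SE 0.0653, adjusted p = 0.00534, limma). At the second the −log10 p was 71.7, 65.8 and 101 in GR-Con and 140, 136 and 169 in GR-KO (adjusted p = 0.00459, limma). Both hold ACTGTA, 25 and 85 bp from their centres. In all, the folds overlapped at 2 of the 18 lower sites and 2 of the 9 higher sites called by −log10 p.

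Among the voltage-gated families, Kcnd2, which carries A-type current, had an intronic site 103 kb from the TSS with folds of 8.32, 12.4 and 5.24 in GR-Con, no peak in GR-KO 1, and 2.84 and 2.81 in GR-KO 2 and 3 (by −log10 p, adjusted p = 0.0251, limma). Kcnq1, best known from heart and epithelia, had an intronic site 85.8 kb from the TSS with no peak in GR-Con and folds of 3.33, 5.68 and 4.49 in GR-KO (by −log10 p, adjusted p = 0.0456, limma). Of its 45 sites this was the only one called. Kcnc1, which supports fast spiking in neurons, had a site higher in GR-KO inside the neighbouring gene Sergef, with folds of 12.9, 10.8 and 10.2 against 13.7, 13.6 and 13.1 (by −log10 p, adjusted p = 0.0115, limma). Sites of Kcnb2 and Kcns1 were also higher by −log10 p (adjusted p = 0.0369 and 0.00930, limma). The Kcnb2 folds were 8.22, 7.94 and 6.16 in GR-Con against 8.81, 10.1 and 11.2, and those of the Kcns1 site, which lies inside Stk4, were 8.63, 10.2 and 7.99 against 11.2, 11.5 and 10.6. The Kv1 family (8 genes, 51 sites, Kcna1 and Kcna2 among them) had no called site in either limma fit, with 4 at an unadjusted p under 0.05 by fold and 3 by −log10 p (against those same 12.1% and 13.4% of all sites).

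Of the auxiliary subunits, Kcnip4 had an intronic site 78.2 kb from the TSS with folds of 21.7, 18.6 and 9.81 in GR-Con and 5.78, 5.87 and 5.80 in GR-KO (by −log10 p, adjusted p = 0.00281, by fold 0.100, limma). The GR-Con libraries were spread widely there, with GR-Con 3 nearest to GR-KO, and AGAACA occurs at both 65 and 93 bp from the centre. Kcnab1, a cytoplasmic beta subunit of Kcna channels, had an intronic site 249 kb from the TSS with folds of 15.1, 16.9 and 11.6 against 10.3, 8.27 and 9.38 (by −log10 p, adjusted p = 0.00385, limma). Kcnip3 (30 sites) and Kcnmb4 (8 sites) had no called site, at counts where the shares of all sites (0.835% lower and 0.76% higher) would give fewer than 1.

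A peak in every GR-Con and no GR-KO library was found at 17 sites (1.42%, against 1.15% of all sites), and the reverse at 10 sites (0.838%, against 0.618%). None of these 27 sites was a promoter. As weaker signal is not listed, these sites need not be closed in the group without a peak. Kcnip1 held 4 of the GR-Con sites, all intronic, with folds between 2.29 and 4.54, and 2 of the GR-KO sites, with folds between 2.22 and 3.61. Kcnma1 held one of each, the first with folds of 8.5, 6.77 and 3.04 in GR-Con 1, 2 and 3, the highest of the 17, and the second with 2.17, 3.79 and 2.99 in GR-KO. Kcnk3, an acid-sensitive leak channel, had an intronic GR-Con site with folds of 4.91, 3.76 and 4.23. Kcnc1 held 3 of the GR-KO sites, 1 of them inside Myod1, with folds between 2.06 and 3.51. None of the 27 passed by fold, and the Kcnn4 and Kcnq1 sites described above passed by −log10 p.

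**Figure D3:**
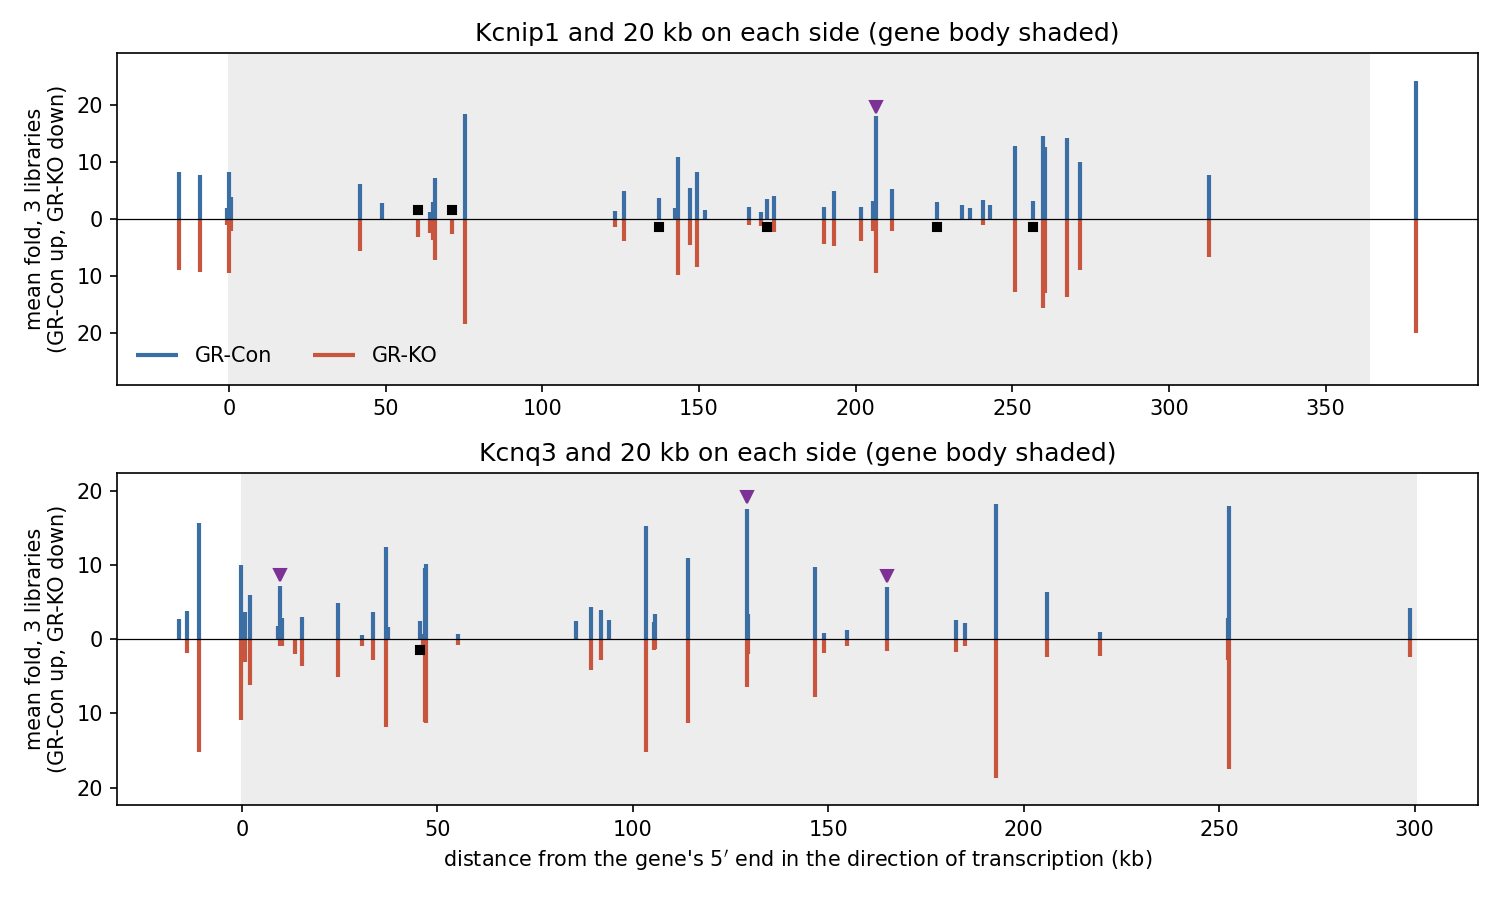
Mean fold of 3 GR-Con (up) and 3 GR-KO (down) libraries at every site of Kcnip1 and Kcnq3, against the distance from the gene's 5′ end in kb, with the gene body shaded. Triangles mark sites called by fold or −log10 p and squares sites with a peak in every library of one group and none of the other, 4 GR-Con and 2 GR-KO at Kcnip1.

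Peaks were then counted per gene, whichever site they belonged to. Every GR-KO library had fewer peaks than every GR-Con library at 11 of the 92 genes (12%, against 4.82% of the 18665 protein-coding genes with a peak), and more at 1 gene (1.09%, against 1.79%). Kcnip1 had 48, 51 and 43 peaks in GR-Con 1, 2 and 3 and 38, 33 and 35 in GR-KO. Kcnq3 had 50, 44 and 46 against 34, 39 and 35, and Kcnj6 49, 42 and 47 against 36, 38 and 36. The others included Kcnk10, Kcnd2, Kcnk1, Kcnab1, Kcnj5, Kcnmb3 and Kcnk6, and the gene with more was Kcnc1, at 17, 18 and 16 in GR-Con and 24, 20 and 22 in GR-KO. Long genes hold more peaks, and among genes with 20 or more peaks on average 8 of 21 potassium channel genes had fewer in every GR-KO library (38.1%, against 9.37% of 2295 genes) and none had more (against 1.83%). Every GR-Con list was longer than every GR-KO list, and the shares for genes with 20 or more peaks were taken from the full lists only. With the lists cut to equal length by −log10 p the count fell from 11 to 5 genes (5.43%, against 3.08%), and as a share of each list it stayed at 11 (against 4.1%), while the genes above rose to 9 (9.78%, against 13.3%). These settings were chosen after the values were seen. No exact permutation test of a single gene can give a p below 0.1 with 3 libraries against 3.

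**Figure D4:**
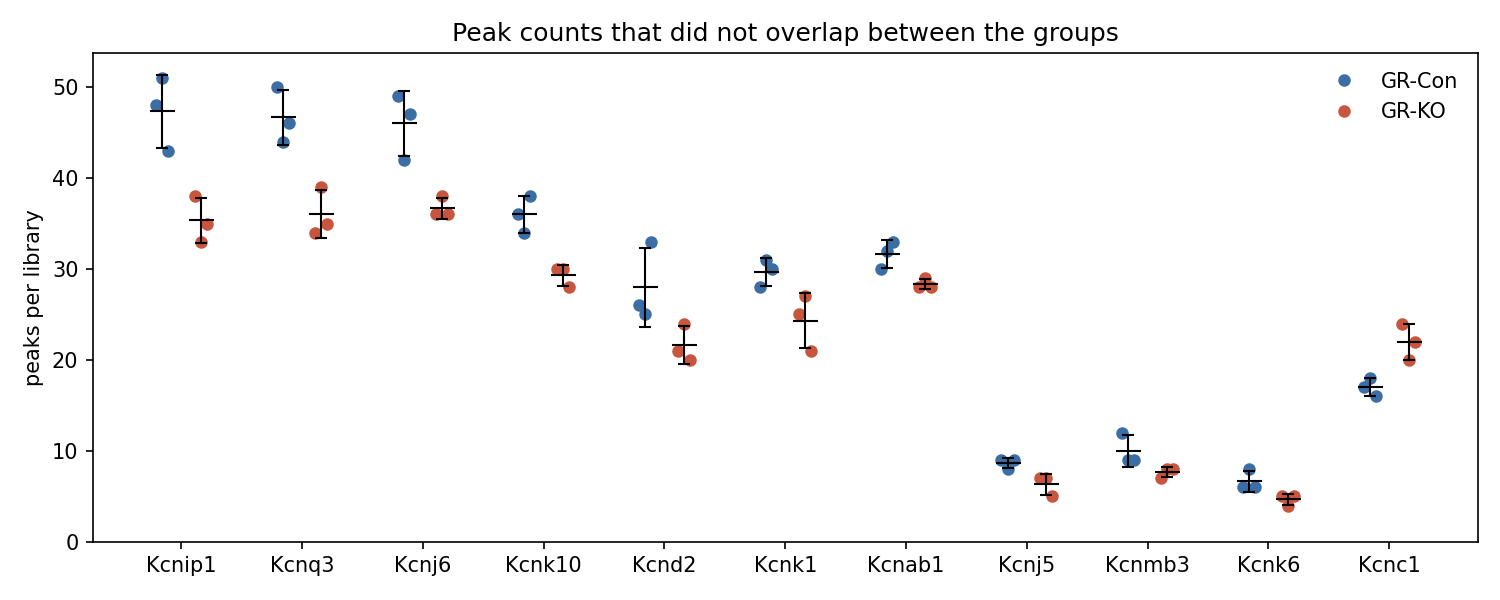
Number of peaks per library (y axis, linear from 0) at 11 of the 12 genes whose counts did not overlap between the groups, with a point per library, 3 GR-Con and 3 GR-KO, and bars for the mean and SD. The first 10 genes have fewer peaks in GR-KO, the largest drop being at Kcnip1, from 47.3 to 35.3 on average, and Kcnc1 has more.

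Promoters, taken as sites centred within 500 bp of a TSS of a protein-coding transcript, were found at 72 of the 92 genes (113 sites). The 20 genes without included Kcnh8, Kcnj5 and Kcnn4. Only the Kcng2 promoter passed in either fit, 1 of 113 sites (0.885%, against 0.0417% of all promoter sites lower by fold and 0.297% by −log10 p). None was higher (against 0.00927% and 0.232%), and 9 of 113 had an unadjusted p under 0.05 in each fit (7.96%, against 6.59% of all promoter sites by fold and 9.14% by −log10 p). With only the 5′ end of each gene as TSS, 0 of 74 promoter sites were lower by fold, against 0.127% of all sites. The 5 highest promoters belonged to Kcnn1, Kcnh1 (EAG), Kcnh2 (ERG), Kcnj2 and Kcnk5, at mean percentiles of 98.1, 97.3, 95.0, 94.6 and 94.1. That of Kcnn1 had folds of 24.7, 24.9 and 24.9 in GR-Con and 24.9, 23.5 and 24.9 in GR-KO, and that of Kcnh1 25.5, 22.7 and 24.9 against 24.2, 20.7 and 23.8. The promoters of Kcnk5, Kcnh2 and Kcnj2 had folds between 18 and 23.1 in all libraries, and the groups overlapped at each of the 5. At the other end stood Kcns1, Kcnj13, Kcnq1 and Kcne3, at percentiles 20.6, 21.1, 23.4 and 23.5. The median promoter site of the set stood at percentile 52.8, against 72.5 for all promoter sites, and 72.6% had a peak in all 6 libraries, against 80.6%. Their GC content was no lower, with medians of 66.2% and 64.7%, and the observed over expected CpG ratio was 0.668 against 0.761.

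**Figure D5:**
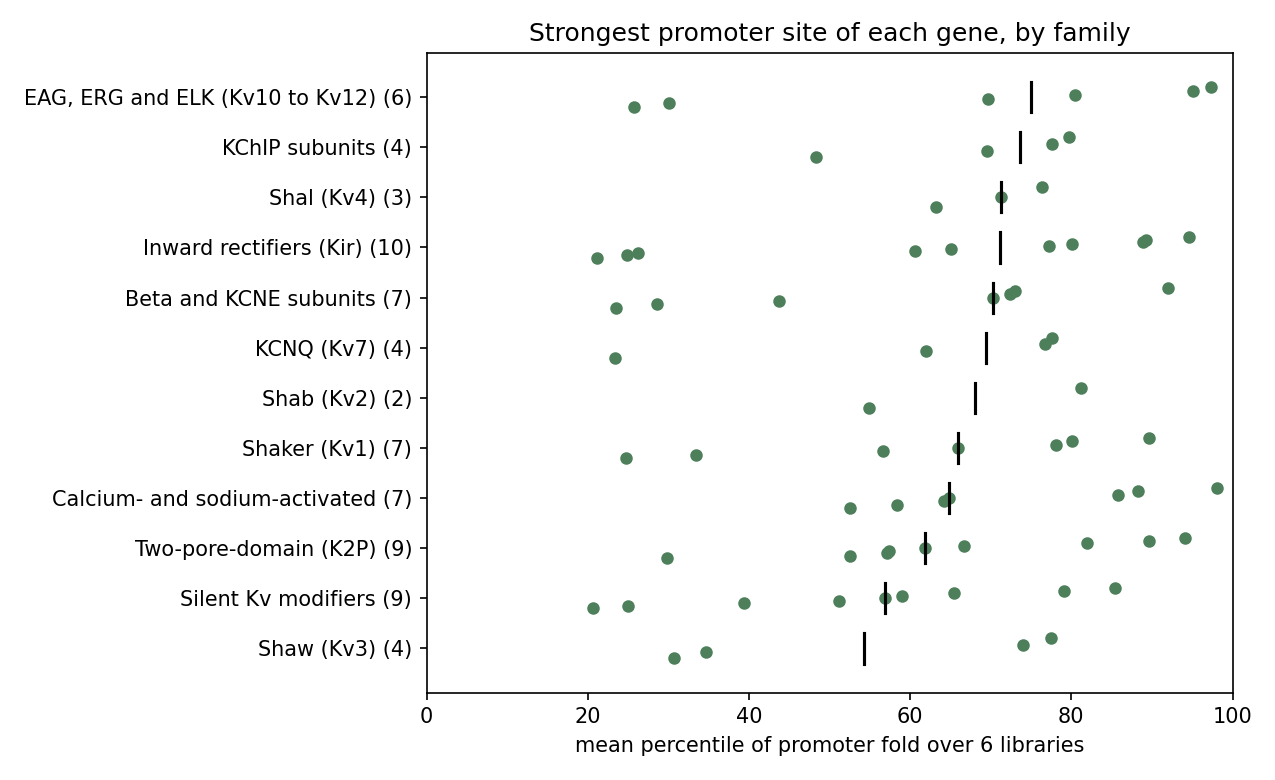
Mean percentile of fold over the 6 libraries (x axis, 0 to 100) of the strongest promoter site of each of 72 genes, grouped by family, with the number of genes in parentheses and a line at the family median. Medians run from 54.3 for Kcnc genes to 75.0 for Kcnh genes, and every family with more than 3 genes spans over 30 percentile points.

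Outside promoters, 1030 sites at 89 genes lay in introns, exons or flanks, and 100 of them lay in the body of another gene. Of these sites 3 were lower by fold (0.291%, against 0.14% of all sites outside promoters) and 17 by −log10 p (1.65%, against 0.919%), with 1 (0.0971%, against 0.0689%) and 9 (0.874%, against 0.842%) higher. Of the 18 sites lower by −log10 p, 12 were intronic and 13 had a peak in all 6 libraries, and the median distance to the TSS was 43.8 kb. When the scores of these elements were averaged per gene, 0 of 89 genes passed (limma), against 0.227% of 17606 genes lower and 0.0795% higher, and 12 had an unadjusted p under 0.05, against 12.6% of all genes. The smallest p after Kcnh8 were those of Kcng2, Kcng3 (−0.50, SE 0.133), Kcnq3 (−0.23, SE 0.0635), Kcnv2 and Kcnc1 (0.25, SE 0.0720).

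Sequence matches were counted within 100 bp of every site centre. The GR palindrome occurred at 9 of the 1193 sites (0.754%, against 0.634% of all sites), none of them a promoter. It was in 3 of the 18 sites lower by −log10 p (16.7%), at Kcnma1, Kcnn1 and Kcnq3, and in 17.2% of the 1344 such sites of the genome, and in none of the 9 higher ones. AGAACA, which can share bases with a palindrome, was in 6 of the 18 lower sites (33.3%, against 42.4% of all lower sites and 17.3% of all sites) and in none of the 9 higher sites (13.7% of all higher sites). It was in 8 of the 17 sites found only in GR-Con (47.1%, against 29.8% of all such sites) and in 3 of the 10 found only in GR-KO (30%, against 15.7%). ACTGTA was in 5 of the 9 higher sites (55.6%, against 31.2% of all higher sites and 7.82% of all sites), those of Kcnb2, Kcnq1 and Kcns1 and the 2 neighbouring sites of Kcnn3. It was also in 2 of the 18 lower sites (11.1%, against 5.73% of all lower sites). For these groups at P21 the paper already reported the GR motif in regions that close in GR-KO and ZBTB motifs in those that open. The shares above are thus no separate support for such motifs. A match is a run of letters and not a measured binding site.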

How the data were processed

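ATAC-seq was measured in 6 libraries of sorted P21 V1 astrocyte nuclei, 3 GR-Con and 3 GR-KO, grouped by their labels. Per the methods, the authors processed reads with the ENCODE ATAC-seq pipeline on mm10 and called peaks per library. Each deposited list gives a fold (a ratio over local background), −log10 p and −log10 q values, and a score derived from −log10 p. The lists hold no read counts, so the depth is unknown and no count model could be used.

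A peak was assigned to a site when its summit lay within 200 bp of the site centre, and a site needed peaks from 2 or more libraries. Values were ranked within each library, absent peaks lowest, turned into normal scores and tested with limma 3.58.1 (R 4.3.3, variance trend, no block), with Benjamini-Hochberg adjustment over all sites and a threshold of 0.05. Shares of peaks were compared by exact permutation tests (scipy 1.17.1). Genes and TSS came from GENCODE M21 and sequences from the RefSeq mm10 genome (pysam 0.24.0). The code was tested on simulated data. Nothing says that the pools were separate litters, so p-values measure the spread between these libraries.

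The members and lists were chosen with earlier results of these data known. Named sites were those called in either fit, the 5 of smallest p per direction and fit, the 5 strongest present in 1 group only per direction, the 5 highest promoters, the 5 genes with most sites, and a fixed list of genes. Others, such as Kcnj6, the lowest promoters and the genes with non-overlapping peak counts, were chosen after their values were seen. Alternatives changed peak assignment, q-value, list length, site support, variance trend, replicate block, libraries, gene window and promoter definition. Some items that the naming rule covers are not reported here.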

Additional observations from a re-analysis of the deposited data

How the results depend on the processing

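By fold, the 4 lower and 1 higher sites became 7 and 2 when a peak had to cover over 200 bp of the site (0.337% and 0.186% of all sites) and 14 and 5 without the variance trend (0.668% and 0.478% of all sites), and in each of these settings 3 of the 5 sites called by fold kept their call. They became 0 and 0 with the replicate block, where 0 of the 160877 sites of the genome were called. Without a library they were 0 and 0 as well, against 0% to 0.00194% of all sites lower and 0% higher. By −log10 p, the 18 lower and 9 higher sites became 8 and 2 with the covering rule (0.375% and 0.213% of all sites), where 5 of the 26 called sites with a value kept their call, and 14 and 6 without the variance trend (0.719% and 0.502%), where 7 of 27 did. With sites in all 6 libraries 19 were lower and 22 higher (1.76% and 1.84%), with the replicate block 12 and 5 (0.436% and 0.315%), and without a library 4 to 14 and 1 to 4. Sites found only in GR-Con, 17, were 24 to 35 without a library (1.98% to 2.45% of all sites), and those only in GR-KO, 10, were 12 to 22 (1.13% to 1.51%), and 5 at a q-value of 0.01 or less (0.53%). Fewer libraries make this presence rule easier to meet. Genes lower by mean score, 0, became 1 with the covering rule, with sites in all 6 libraries and with the gene body only (0.333%, 0.0244% and 0.141% of all genes). Without a library they stayed at 0 (0% to 0.0856% of all genes). Lower promoters by fold, 1, became 2 with the covering rule (0.337% of all sites), 0 with the replicate block (0%), and 0 with only the 5′ end of the gene as TSS (0.127%). Without a library they were 0 in each run (0% to 0.00194% of all sites). Genes with fewer peaks in every GR-KO library, 11, were 5 with equal list lengths (3.08% of all genes), 8 at a q-value of 0.01 or less (5.93%) and 12 to 16 without a library (7.17% to 10.1%), and genes with more, 1, were 9 as a share of the list (13.3%), 0 at that q-value (1.31%) and 1 to 4 without a library (3.21% to 5.41%). The difference in share of peaks stayed negative, from −0.0236 to −0.00498 percentage points without a library. At the Kcnn3 site 39.0 kb from the TSS the difference by fold ranged from −0.00409 without GR-Con 3 to 0.0826 without GR-Con 1. The cause of these changes was not tested. Deviations of libraries with the same number correlated weakly (r = 0.0295, −0.0048 and 0.0250 by fold), and those across numbers had r from −0.0323 to 0.0075. The r of numbers 1 and 3 were thus the highest, while GR-Con 2 and GR-KO 2 did not correlate best with each other. The numbers were not taken as pairs in the main fits, and the replicate block gives the result if they are.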

Other observations

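Sodium, calcium and chloride channel genes and partner genes had no site called by fold (limma), and the counts below stand against 0.835% of all sites lower and 0.76% higher by −log10 p, and 12.1% of all sites at an unadjusted p under 0.05 by fold and 13.4% by −log10 p. The 14 sodium channel genes (Scn, 104 sites, 12 at an unadjusted p under 0.05) had 1 site called by −log10 p, 10185 bp upstream of the auxiliary subunit Scn2b, with folds of 10.6, 6.21 and 5.75 in GR-Con and 13.2, 15.1 and 13.5 in GR-KO (adjusted p = 0.0145, limma). The 26 calcium channel genes (Cacn, 575 sites, 81 unadjusted) had 4, lower at Cacna2d3 and Cacng2 and higher at Cacna1g and Cacnb1. At the intronic Cacng2 site the fold was 14.4, 16.9 and 16.3 in GR-Con and 8.13, 11.5 and 8.98 in GR-KO (by −log10 p, adjusted p = 0.0158, limma). The 9 chloride channel genes (Clcn, 71 sites) had none in either limma fit, with 12 unadjusted in each. Among 16 partners of potassium channels and related genes (214 sites, 35 unadjusted), Hcn2, a pacemaker channel, had a site with folds of 4.97, 5.90 and 5.07 in GR-Con, 1.85 in GR-KO 1 and no peak in GR-KO 2 and 3 (by −log10 p, adjusted p = 0.00273, limma). An intronic site of Cntnap2, which clusters Kcna channels on axons, was higher by −log10 p, at 134, 111 and 98.7 against 183, 213 and 193 (adjusted p = 0.00287, limma).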
